A study of Homo sapiens with 6 samples.

Results

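The nuclear-encoded subunits of the mitochondrial respiratory chain and ATP synthase were examined in AN3CA, an established cell line from a human endometrial cancer, after knockdown (KD) of *PAX2*. Members were chosen by name: every listed gene symbol beginning with NDUFA, NDUFB, NDUFC, NDUFS or NDUFV and a digit, *SDHA* to *SDHD*, symbols beginning with UQCR, COX4 to COX8 or ATP5, and *CYC1*. This gave 88 of the 17471 genes listed, with 40 under complex I names, 4 under complex II, 11 under complex III, 13 under complex IV and 20 under complex V. Of the 88, 75 are standard subunits, and the other 13 are read-through transcripts, an antisense RNA, pseudogenes, retrocopies, paralogues or genes whose old names resemble those of subunits. The measurement was rRNA-depleted stranded total RNA-seq of 6 libraries. The 3 control libraries (shEV) are labelled wild type and carried, by the labels and the methods for this line, the empty lentiviral vector pGFP-C-shLenti, and the 3 KD libraries (shPAX2) carried 1 short hairpin RNA against *PAX2* in that vector. All cells were selected with puromycin. Only 1 hairpin was used, and other passages of the study call the AN3CA control a scrambled hairpin, so whether the control carried an unrelated hairpin cannot be told. The study states in general that its in vitro experiments were repeated, but nothing ties the 3 libraries of a group to separate cultures, so p-values measure only the spread between these libraries, which may be technical.

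Complexes I to IV pass electrons from NADH and succinate to oxygen and, except complex II, pump protons across the inner mitochondrial membrane, and complex V (ATP synthase) uses the returning protons to make ATP. Each complex except complex II joins a few subunits encoded by mitochondrial DNA to many encoded in the nucleus. The nuclear genes are scattered over the chromosomes, and many of their promoters carry sites for the activators NRF1 and GABP (an ETS factor) and for YY1. Endometrial cancers use both glycolysis and oxidative phosphorylation. Genes encoded by mitochondrial DNA were not analysed here.

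The promoters share letters that the name rule did not use. RefSeq promoter windows (GRCh38.p14, 250 bases before to 50 after a transcript start) were matched for 61 of the 75 subunits, and all matches were sought on both strands. The ETS letters CCGGAAG stood in 20 of the 61 promoters (32.8%), against 12.2% of 27305 genes. These are all genes with a promoter window, whether or not they were tested here. They were not matched to the members for expression, so the excess may not be particular to the members. The NRF1 letters (GCGC, then 1 base of any kind, then TGCGC) stood in 15 (24.6%, against 6.98%), and the form with A as the free base, which they contain, in 4 (6.56%, against 1.52%). The YY1 letters AAGATGGCG stood in 9 (14.8%, against 2.14%). At least 1 of these 3 motifs (counting the NRF1 form with the free base) stood in 37 of 61 promoters (60.7%), against 19% of genes. Other letters did not stand out in this way: the SP1 letters GGGCGGG stood in 32.8% against 36.7%, the hypoxia-response core ACGTG in 27.9% against 24.9%, and TATAAA in 9.84% against 14%. Windows of 30 bases are shown, 5′ to 3′ on the gene's strand, for subunits described below among the lowest of their complex after KD, and for *ATP5J*, which holds both ETS and YY1 letters. Capitals mark the match.
NDUFA3 (NRF1 letters, chr19:54102772-54102801, plus strand): gtgctccaggGCGCACGCGCagccctggga
SDHA (NRF1 letters, chr5:218242-218271, plus strand): ccggcgtggtGCGCAGGCGCggtatccccc
ATP5I (NRF1 letters, chr4:674431-674460, minus strand): cagcctttgtGCGCGTGCGCctcacgtgac
COX6B1 (ETS letters, chr19:35648293-35648322, plus strand): agtccccacctctctcagCTTCCGGctggt
COX5B (ETS letters, chr2:97646014-97646043, plus strand): gaagcccgcccCCGGAAGtccctcctgtct
NDUFA1 (ETS letters, chrX:119871774-119871803, plus strand): ttccgtcgcttCTTCCGGagccgtacgtgg
ATP5J (ETS letters, chr21:25735066-25735095, minus strand): tgccaggggacCCGGAAGcacttaccctcc
ATP5J (YY1 letters, chr21:25735092-25735121, minus strand): aggcgaagaaAAGATGGCGgaggctgtgcc
A match is a description of the letters and not of a bound site. All windows but those of *ATP5J* were picked by the change of their gene, so they do not show that the letters go with a decrease. The ETS letters also stood in *SDHB*, *SDHD* and *COX8A*, and the NRF1 letters in *NDUFA11*, all with log2 fold changes above zero. *NDUFB1* and *NDUFA5*, also among the lowest of complex I, had none of the 3 motifs.

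Values were deposited as TPM, transcripts per 1000000, a share of each library scaled for gene length. Whole reads recovered from them totalled between 10730909 and 18221859 in the shEV libraries and between 19422615 and 29405787 in those of shPAX2, so depth moved with group. *PAX2* itself stood at 4.03, 3.66 and 2.74 TPM in shEV and 0.916, 0.723 and 1.17 TPM in shPAX2, with no overlap (log2 fold change −1.47, SE 0.18, limma adjusted p = 0.000294), and an exact two-sided permutation test over the 6 libraries gave p = 0.1, the smallest that 3 against 3 allows. The labels call the cells epithelial, but *EPCAM*, *KRT8*, *KRT19* and *CDH1* had at most 6 reads in any library and only *KRT18* was above 10 TPM. Of 4 stromal markers 2 were listed, and the collagen gene *COL1A2* stood at 360 to 855 TPM but *COL1A1* at only 0.691 to 1.48 TPM. Their sum, nearly all of it *COL1A2*, ran from 810 to 857 TPM in shEV and from 361 to 440 TPM in shPAX2. The immune marker *PTPRC* and the endothelial marker *VWF* had at most 3 reads, while *CD68*, the other immune marker, had up to 57. The summed immune markers ran from 0.835 to 1.52 TPM in shEV and from 1.58 to 2.28 TPM in shPAX2, without overlap. The part of these differences in the results below was not tested, and in bulk RNA fewer cells of a type and less RNA per cell cannot be told apart.

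After KD most respiratory chain genes changed little, and on the TPM scale their median was close to that of all genes tested. How they stood against other genes depended on the scaling and on the genes they were set against. Of the 88 genes, 85 passed the filter (0.5 TPM or more in no fewer than 3 libraries) and were tested with limma on log2(TPM + 0.5), with Benjamini-Hochberg adjustment over 13163 genes. On the TPM scale 25 of the 85 (29.4%) were lower at an adjusted p under 0.05, against 30.5% of all genes tested, and 4 (4.71%) were higher, against 12.2% of all genes. On that scale the share of lower genes was close to the background, and the share of higher genes was below it. The remaining 56 did not pass. In all 29 that passed, the 3 libraries of a group did not overlap those of the other group. Counting every gene without overlap, 34 of 85 members (40%) were lower and 5 (5.88%) higher, against 39.0% and 15.9% of all genes.

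Most changes were small. The median log2 fold change of the 85 was −0.09, against −0.10 for all genes tested, and the interquartile range of the members ran from −0.21 to 0.05. An absolute log2 fold change under 0.25 was found for 74.1% of members and 55.2% of all genes tested. These groups were not matched for abundance, and the median member had a mean of 193.1 TPM over the libraries. When a change of 1 or more on the log2 scale was also required, 1 member passed, *NDUFA4L2*, which was lower, and no member was higher, against 3.11% of all genes lower and 1.43% higher.

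The direction of the count depended on the scale. TPM is a share of a total, and the median gene was 0.10 lower in shPAX2 on that scale. When the libraries were scaled to each other by the median of ratios, 12 members were higher (14.1%) and 6 lower (7.06%), against 21.2% and 19.9% of all genes tested. With voom on recovered reads 15 were higher (17.6%) and 8 lower (9.41%), against 22.4% and 21.9%. With quantile normalization 4 were higher (4.71%) and 26 lower (30.6%), against 18.0% and 18.9%, so that here the share of lower members was above the background, and the members' median minus that of all genes was −0.0924. Against the 1575 genes with a mean TPM of 100 or more, 63 of them members, a group set after the values were seen, the members stood lower on the TPM scale: the median of those genes was 0.04, and 22.2% were higher and 18.1% lower. The members' values set against those genes are those of all 85 and not of the 63 alone. This difference was not tested. No member that passed on the TPM scale changed sign under any of 16 alternative settings, and 9 members passed in the same direction on the TPM scale, with median-of-ratios scaling, with quantile normalization and with voom on recovered reads. *NDUFA3*, *NDUFA5*, *NDUFB1*, *UQCRB* and *COX4I1* were lower (5.88% of 85, against 15.9% of all genes), and *NDUFB2*, *NDUFC1*, *SDHC* and *COX7A2* were higher (4.71%, against 11.8%). The count of 25 lower members also rested on single libraries, since it was 14 without shEV replicate 2 and 12 without shPAX2 replicate 2. Of the 29 calls, 12 held whichever library was left out, among them *NDUFA3*, *NDUFA5*, *NDUFB1*, *NDUFB8*, *SDHA*, *SDHC*, *UQCRB*, *COX4I1*, *COX5B*, *COX7A2* and *COX7A2L*. The other 17 lost their call without at least 1 library: 14 of them without shEV replicate 2, and also 14 without shPAX2 replicate 2.

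**Figure D1:**
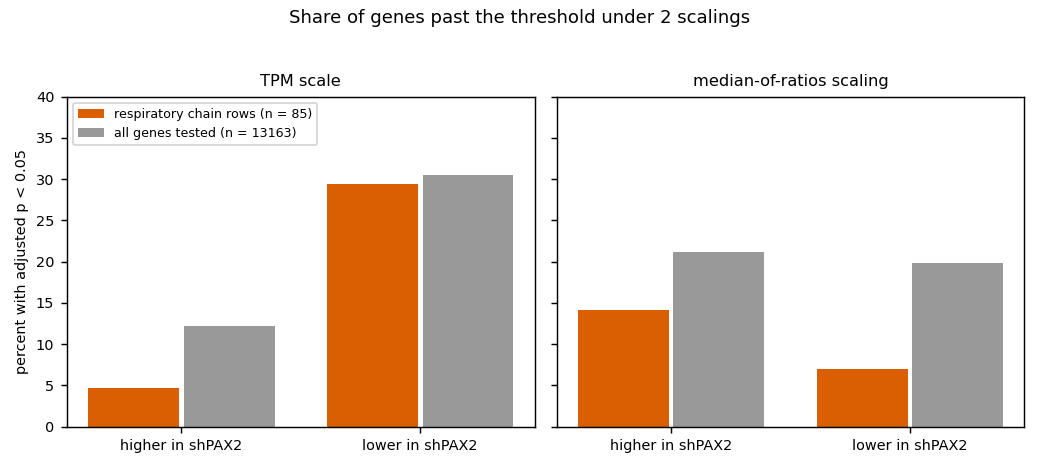
Percent of genes with an adjusted p under 0.05 (y axis) that were higher or lower in shPAX2, for the 85 respiratory chain genes tested (orange bars) and all 13163 genes tested (grey bars), on the TPM scale (left) and with median-of-ratios scaling (right). The 2 bars for lower genes on the TPM scale are nearly equal (29.4% and 30.5%), while the members' bar is the shorter one in the other 3 pairs.

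**Figure D2:**
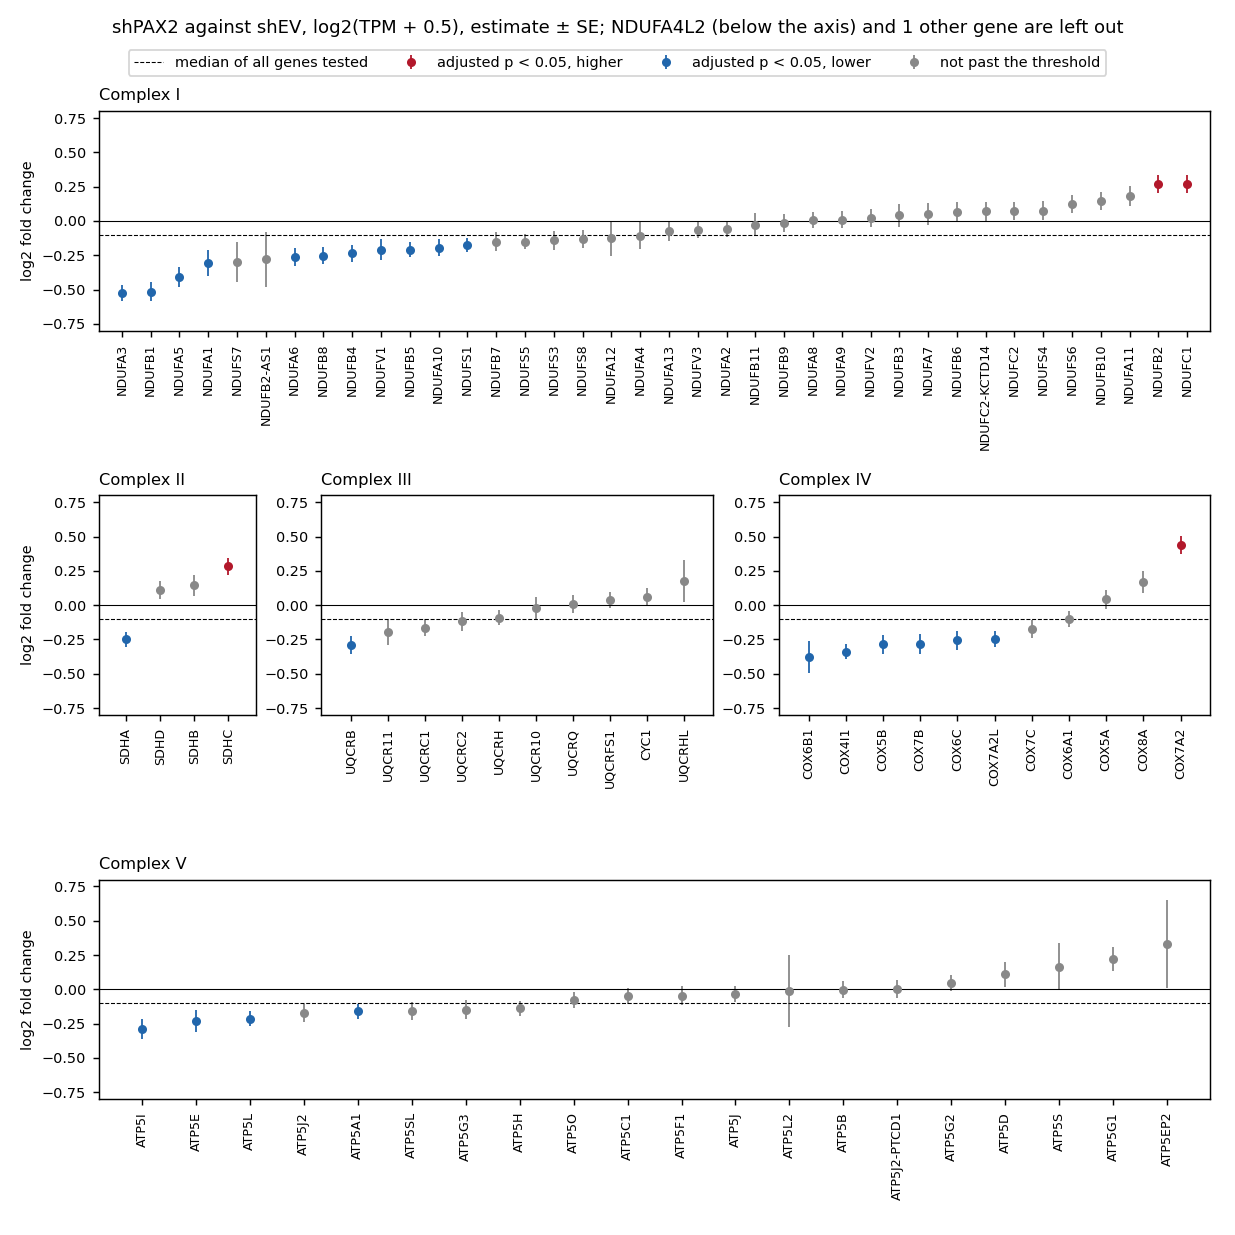
Log2 fold change, shPAX2 against shEV, on log2(TPM + 0.5) (y axis), for the tested members other than *NDUFA4L2* (−3.79) and 1 complex I gene not shown, ordered within its complex. Points are limma estimates, bars are 1 SE, colours mark genes past an adjusted p of 0.05, and the dashed line is the median of all genes tested (−0.10). Most points lie within 0.25 of zero, and genes of both directions stand in complexes I, II and IV.

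Complex I takes electrons from NADH. Its catalytic core includes the flavin subunit *NDUFV1*, *NDUFV2* and the subunits *NDUFS1*, *NDUFS3*, *NDUFS7* and *NDUFS8*. Of these 6, *NDUFS1* and *NDUFV1* were lower on the TPM scale and none was higher. *NDUFS1*, the largest iron-sulfur subunit, stood at 92.7, 90.6 and 93.0 TPM in shEV and 79.4, 81.3 and 83.9 TPM in shPAX2 (log2 fold change −0.17, SE 0.05, limma adjusted p = 0.0269), and it lost its call without shEV replicate 1, 2 or 3 or shPAX2 replicate 2. *NDUFV1* passed narrowly, at 189, 186 and 178 against 171, 165 and 142 TPM (−0.21, SE 0.08, adjusted p = 0.0497), and its call was lost in 11 of the 16 alternative settings. The shPAX2 libraries were the lower ones in both genes, with a gap between groups that was narrow for *NDUFV1*. The others of the 6 had log2 fold changes of −0.30 (*NDUFS7*, adjusted p = 0.148), −0.14 (*NDUFS3*), −0.13 (*NDUFS8*) and 0.02 (*NDUFV2*). For *NDUFS7* the shPAX2 values were spread from 46.8 to 70.8 TPM, which gave it the largest SE of the 6 (0.15).

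Around the core sit the accessory subunits, and the largest decreases among standard complex I subunits were in this class. *NDUFA3*, a small membrane-arm subunit whose promoter window is shown above, stood at 465, 468 and 456 TPM in shEV and 339, 310 and 316 TPM in shPAX2 (−0.53, SE 0.06, limma adjusted p = 0.000168). *NDUFB1*, another small membrane-arm subunit, stood at 334, 292 and 318 against 227, 209 and 223 TPM (−0.52, SE 0.07, adjusted p = 0.000442). *NDUFA5*, of the peripheral arm, stood at 159, 147 and 177 against 120, 119 and 124.7 TPM (−0.41, SE 0.07, adjusted p = 0.00239). The 3 genes kept their calls in all 16 alternative settings, and in each the highest shPAX2 library was below the lowest shEV library. In contrast, 2 accessory subunits of the membrane arm were higher. *NDUFB2* stood at 305, 270 and 267 TPM in shEV and 335, 330 and 346 TPM in shPAX2 (0.27, SE 0.07, adjusted p = 0.0115). *NDUFC1* stood at 87.9, 81.2 and 87.5 against 95.7, 109 and 105 TPM (0.27, SE 0.07, adjusted p = 0.0116). Without shEV replicate 2 the adjusted p was 0.0524 for *NDUFB2* and 0.0511 for *NDUFC1*, and over all alternative settings it ran up to 0.0573. All shPAX2 libraries were above all shEV libraries for both. The next highest standard subunits, *NDUFA11* (0.18) and *NDUFB10* (0.15), did not pass.

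Over all 40 complex I names, 13 were lower (32.5%, against 30.5% of all genes tested), 2 were higher (5.00%, against 12.2%) and the median log2 fold change was −0.12. With median-of-ratios scaling 4 were lower and 6 higher (10.0% and 15.0%, against 19.9% and 21.2%). *NDUFS5*, an intermembrane-space subunit and the most abundant complex I member, stood at 729, 699 and 703 TPM in shEV and 625, 629 and 665 TPM in shPAX2 (−0.15, SE 0.06, limma adjusted p = 0.0533), so its groups did not overlap although it did not pass. Also lower were *NDUFA1* (−0.31), *NDUFA6* (−0.26), *NDUFB8* (−0.25), *NDUFB4* (−0.23), *NDUFB5* (−0.21) and *NDUFA10* (−0.19). *NDUFB8* lies on the same chromosome as *PAX2* (GRCh37, chr10:102283497-102289757, against chr10:102495153-102589701), 205.4 kb away, and overlaps *HIF1AN* on the opposite strand. Whether reads were counted by strand is not given in the sources used here, so reads of overlapping genes on opposite strands may not have been separated.

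*NDUFA4L2*, a paralogue of *NDUFA4* known as a hypoxia-inducible gene, showed by far the largest change. It stood at 16.5, 27.2 and 66.2 TPM in shEV and at 3.74, 1.44 and 0.949 TPM in shPAX2. Every shPAX2 library was below every shEV library, and the shEV libraries themselves spanned a wide range. The mean was 36.6 ± 26.2 TPM (SD, n = 3) in shEV and 2.04 ± 1.49 TPM in shPAX2, which is 5.57% of the shEV mean, and the log2 fold change was −3.79 (SE 0.70, limma adjusted p = 0.0139). The adjusted p ran from 0.00424 to 0.0711 over 16 alternative settings and stayed under 0.05 in 12. It was 0.0636 without shPAX2 replicate 2, 0.0565 without shPAX2 replicate 3 and 0.0574 with voom on recovered reads. *NDUFA4*, first counted in complex I and now placed in complex IV, stood at 351, 323 and 312 against 272, 291 and 356 TPM, with overlapping groups (−0.11, SE 0.10, adjusted p = 0.406). Of the summed TPM of the pair, *NDUFA4L2* made up 4.48%, 7.78% and 17.5% in shEV and 1.36%, 0.491% and 0.266% in shPAX2.

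**Figure D3:**
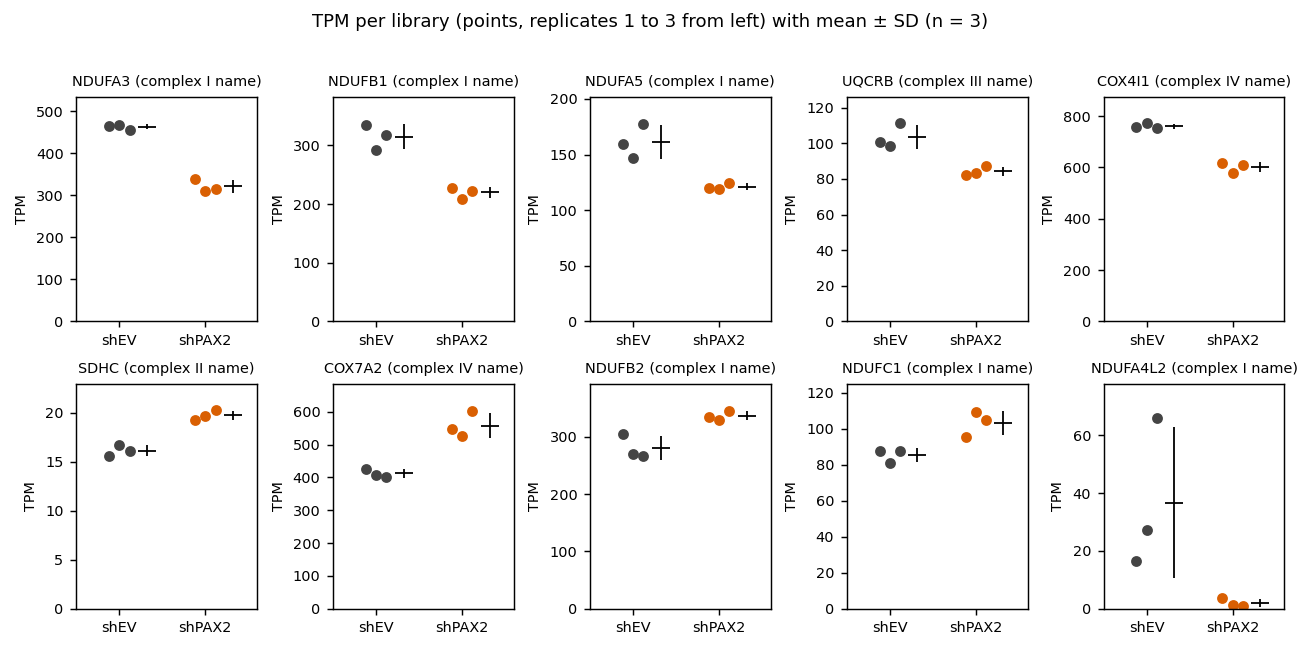
TPM per library (points, replicates 1 to 3 from left) with mean ± SD (n = 3), for the 9 members past an adjusted p of 0.05 in the same direction under 4 scalings and for *NDUFA4L2*; each y axis starts at 0. The groups do not overlap in any of the 10 panels, and the spread within shEV is widest, relative to its mean, for *NDUFA4L2*.

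Complex II, succinate dehydrogenase, is also an enzyme of the tricarboxylic acid cycle and is encoded wholly in the nucleus. Its 4 genes did not move one way. *SDHA*, the flavoprotein that oxidises succinate, stood at 138, 145 and 134 TPM in shEV and 116, 119 and 116 TPM in shPAX2 (−0.25, SE 0.06, limma adjusted p = 0.00662). *SDHC*, one of the membrane anchors, stood at 15.6, 16.7 and 16.1 against 19.3, 19.7 and 20.3 TPM (0.28, SE 0.06, adjusted p = 0.00661). *SDHA* was thus lower and *SDHC* higher, each without overlap. Each is 25% of the 4 genes, against 30.5% of all genes tested lower and 12.2% higher. With median-of-ratios scaling 3 of the 4 genes were higher (75%, against 21.2%) and none lower (against 19.9%). Shares of 4 genes are coarse. *SDHB*, the iron-sulfur subunit and the most abundant of the 4, stood at 197, 187 and 167 against 194, 217 and 197 TPM (0.14, SE 0.08, adjusted p = 0.165). *SDHD*, the other anchor, stood at 132, 126 and 130 against 130, 137 and 151 TPM (0.11, SE 0.07, adjusted p = 0.217). The groups overlapped for both. *SDHC* was the standard subunit with the lowest level per length, with a mean of 18.0 TPM over the 6 libraries.

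Complex III passes electrons from ubiquinol to cytochrome *c*, and on the TPM scale it had the smallest share of members called. Of its 10 tested names 1 was lower (10.0%, against 30.5% of all genes tested), none was higher (against 12.2%), and the median log2 fold change was −0.06. With median-of-ratios scaling 1 was lower (10.0%, against 19.9%) and none higher (against 21.2%). On that scale the share called was smaller in complex V (5.00%). *UQCRB*, which helps to form the quinone pocket, stood at 101, 98.5 and 111 TPM in shEV and 82.4, 83.6 and 87.3 TPM in shPAX2 (−0.29, SE 0.06, limma adjusted p = 0.0061), and it passed in all 16 alternative settings. Its groups were well apart. The catalytic members did not pass: *UQCRFS1*, the Rieske iron-sulfur protein, had a log2 fold change of 0.04 (SE 0.06) and *CYC1*, cytochrome *c*1, of 0.06 (SE 0.06). The core proteins *UQCRC1* (−0.16, adjusted p = 0.0647) and *UQCRC2* (−0.12) did not pass either, nor did *UQCR11* (−0.20, adjusted p = 0.109). *UQCRH*, the hinge protein and the most abundant complex III member, stood at 831, 819 and 804 against 746, 767 and 789 TPM (−0.09, SE 0.05, adjusted p = 0.197). Its groups did not overlap, though the gap was small. The small subunit *UQCRQ* had a log2 fold change of 0.01.

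Complex IV, cytochrome *c* oxidase, reduces oxygen. Of its 11 tested names 6 were lower (54.5%, against 30.5% of all genes tested) and 1 higher (9.09%, against 12.2%), and the median log2 fold change was −0.25, the lowest of the 5 complexes. With median-of-ratios scaling 1 was lower and 2 higher (9.09% and 18.2%, against 19.9% and 21.2%). With quantile normalization 7 were lower and 1 higher (63.6% and 9.09%, against 18.9% and 18.0%). With voom on recovered reads 3 were lower and 2 higher (27.3% and 18.2%, against 21.9% and 22.4%). The complex IV median minus that of all genes was −0.144 on the TPM scale and with voom. It was −0.140 with median-of-ratios scaling and −0.255 with quantile normalization. *COX4I1*, the regulatory subunit added early in assembly, stood at 757, 772 and 752 TPM in shEV and 616, 578 and 610 TPM in shPAX2 (−0.34, SE 0.05, limma adjusted p = 0.00133). It overlaps *EMC8* on the opposite strand, and it passed in all 16 alternative settings. *COX6B1*, which links the 2 monomers of the enzyme, stood at 912, 912 and 859 against 595, 655 and 838 TPM (−0.38, SE 0.12, adjusted p = 0.0339). The third shPAX2 library lay close to the shEV range, the adjusted p was 0.107 with median-of-ratios scaling, and the call was lost in 10 of the 16 alternative settings. *COX5B*, the zinc-binding subunit, stood at 622, 697 and 601 against 511, 530 and 531 TPM (−0.29, SE 0.07, adjusted p = 0.00888). The small subunits *COX7B* (−0.28) and *COX6C* (−0.26) were also lower, as was *COX7A2L* (−0.25), a paralogue counted outside the 75 standard subunits. *COX7C*, the most abundant member of all, stood at 1766, 1755 and 1712 against 1551, 1438 and 1658 TPM (−0.17, SE 0.06, adjusted p = 0.0567), with no overlap but without passing. *COX8A* (0.17), *COX5A* (0.04) and *COX6A1* (−0.10) did not pass.

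*COX7A2*, the widely expressed form of subunit 7A, was the one complex IV gene that was higher. It stood at 427, 408 and 402 TPM in shEV and 548, 525 and 601 TPM in shPAX2 (0.44, SE 0.07, limma adjusted p = 0.000971). All shPAX2 libraries were above all shEV libraries, and the call held in all 16 alternative settings. *COX7A2* was also the only member on chromosome 6. The median log2 fold change was 0.39 for the 634 genes tested on chromosome 6 and −0.11 for those on other chromosomes. Of the chromosome 6 genes, 62.1% were higher at a limma adjusted p under 0.05, against 12.2% of all genes tested. Within chromosome 6, *COX7A2* stood at percentile 55.8 of the log2 fold changes, near the middle.

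Complex V makes ATP. Of its 20 names 4 were lower (20%, against 30.5% of all genes tested), none was higher (against 12.2%), and the median log2 fold change was −0.05. *ATP5I*, subunit e of the membrane part, stood at 816, 851 and 750 TPM in shEV and 623, 643 and 715 TPM in shPAX2 (−0.29, SE 0.07, limma adjusted p = 0.013). *ATP5E*, the epsilon subunit of the catalytic head, stood at 1238, 1063 and 1098 against 894, 963 and 1042 TPM (−0.23, SE 0.08, adjusted p = 0.0447). *ATP5L*, subunit g, stood at 266, 279 and 282 against 234, 233 and 246 TPM (−0.21, SE 0.06, adjusted p = 0.0143). The groups were apart in these 3 genes, narrowly so for *ATP5E*. *ATP5A1*, the alpha subunit, also passed (−0.16, adjusted p = 0.0453), but *ATP5B*, the catalytic beta subunit and the most abundant complex V member, stood at 1252, 1196 and 1186 against 1118, 1255 and 1262 TPM (0.00, SE 0.07, adjusted p = 0.99). Its groups overlapped fully. None of the 4 passed with median-of-ratios scaling, and each lost its call without shEV replicate 2 or shPAX2 replicate 2. With that scaling 1 complex V name was higher, *ATP5G1* (5.00%, against 21.2% of all genes tested), and none lower (against 19.9%). *ATP5J*, whose promoter window is shown above and overlaps the start region of *GABPA* on the opposite strand, had a log2 fold change of −0.03. *ATP5D*, the delta subunit, had one of 0.11.

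Summed over its tested members, each of complexes I, IV and V took a smaller share of the library TPM after KD. The sum for complex I was 8014 ± 190 TPM (SD, n = 3) in shEV and 7331 ± 25.1 TPM in shPAX2, or 91.5% of the shEV mean. The sum for complex IV was 7287 ± 187 against 6577 ± 269 TPM (90.3%), and that for complex V 7917 ± 174 against 7301 ± 272 TPM (92.2%). Complex III went from 2203 ± 63.7 to 2104 ± 37.2 TPM (95.5%) and complex II from 468 ± 19.1 to 479 ± 17.5 TPM (102%). Complex II had by far the smallest sum and was the only one whose sum was not lower. With median-of-ratios scaling, which takes out the shift of the median gene, the shPAX2 sums were 98.5% of the shEV mean for complex I, 110% for complex II, 103% for complex III, 97.2% for complex IV and 99.3% for complex V. The differences for complexes I, IV and V were thus much smaller once that shift was taken out. The sums give most weight to a few abundant genes and were not tested.

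**Figure D4:**
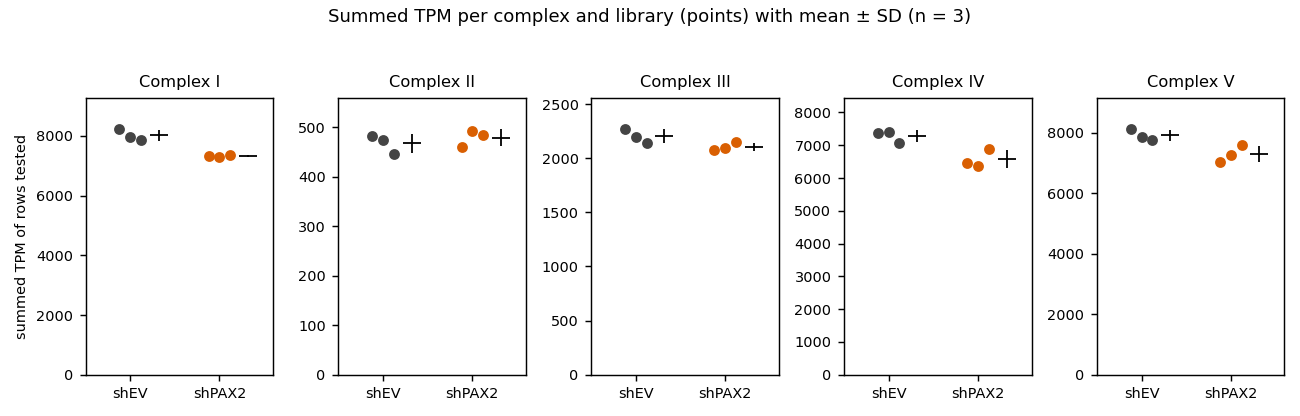
Summed TPM of the tested members of each complex (y axis, starting at 0) in every library (points, replicates 1 to 3 from left), with mean ± SD (n = 3). The shPAX2 sums lie below the shEV sums for complexes I, IV and V, and the 2 groups overlap for complexes II and III.

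Several subunits exist in paralogous forms. For subunit 8 and the hinge protein 1 form held nearly all of the summed TPM, and for subunit 7A and the c ring of ATP synthase it was divided. *COX8C*, the testis form of subunit 8, had at most 4 reads in any library, and *COX7A1*, the heart and muscle form of subunit 7A, at most 1. Neither was tested. *COX4I2*, *COX6A2*, *COX6B2* and *COX7B2* were not analysed here. Within the summed TPM of the 7A group, the share of *COX7A2* was 70.5%, 68.0% and 66.9% in shEV and 77.6%, 76.8% and 78.7% in shPAX2, and *COX7A2L*, a protein of respiratory supercomplexes, took nearly all of the rest. Among the genes for the c ring of ATP synthase, which encode the same mature protein, *ATP5G1* had a share of 32.3% ± 2.35 in shEV and 35.9% ± 2.65 in shPAX2, *ATP5G2* of 45.8% ± 1.93 and 45.2% ± 3.14, and *ATP5G3* of 21.9% ± 0.801 and 18.8% ± 0.556 (SD, n = 3). The log2 fold changes of these genes were 0.22, 0.05 and −0.15, and none passed on the TPM scale. *ATP5G1* was higher with median-of-ratios scaling (limma adjusted p = 0.0213) and with voom (adjusted p = 0.011), and *ATP5G2* with voom only (adjusted p = 0.0413). *UQCRHL*, a retrocopy of *UQCRH*, held 1.85% ± 0.217 of the pair in shEV and 2.25% ± 0.490 in shPAX2 (log2 fold change 0.17, limma adjusted p = 0.386), and near-identical copies of this kind make the split of reads uncertain.

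The remaining names are not subunits, and none of them passed. The read-through transcripts *NDUFC2-KCTD14* (0.07) and *ATP5J2-PTCD1* (0.00) overlap *NDUFC2* (0.08) and *ATP5J2* (−0.17), so reads could be assigned to either. The antisense RNA *NDUFB2-AS1* had 9 to 17 reads per library (−0.28, limma adjusted p = 0.292), and its sense gene *NDUFB2* was higher. The *ATP5E* pseudogene *ATP5EP2* had 3 to 15 reads (0.33, adjusted p = 0.439) and the retrocopy *ATP5L2* 2 to 6 reads (−0.01). The *UQCRB* pseudogene *UQCRBP1* had at most 3 reads and was not tested. *ATP5S* (now *DMAC2L*) had a log2 fold change of 0.17, and *ATP5SL* (now *DMAC2*), a factor of complex I assembly, one of −0.16.

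Among genes that serve the chain, some were higher and some lower. Of 46 assembly factors, 5 were higher (10.9%, against 12.2% of all genes tested) and 7 lower (15.2%, against 30.5%), with a median log2 fold change of −0.01. With median-of-ratios scaling 12 were higher (26.1%, against 21.2%) and 4 lower (8.70%, against 19.9%). The lowest were *ATPAF2*, a factor for the head of ATP synthase (−0.56, limma adjusted p = 0.000533), and *ACN9* (now *SDHAF3*), a complex II factor (−0.52, adjusted p = 0.00074). The highest were *MNF1* (now *UQCC2*), a complex III factor on chromosome 6 (0.69, adjusted p = 0.000119), and *NDUFAF3*, a complex I factor (0.55, adjusted p = 0.000185). Of these 4 differences, those of *ATPAF2*, *MNF1* and *NDUFAF3* were larger in size than any among the standard subunits.

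A further list held 6 genes for the mobile carrier cytochrome *c*, the ATP synthase inhibitor, the mitochondrial acyl carrier and the electron-transferring flavoproteins. Of them 1 was higher (16.7%, against 12.2% of all genes tested) and none lower (against 30.5%). The higher one was the acyl carrier *NDUFAB1*, also a complex I subunit that the name rule leaves out (0.44, limma adjusted p = 0.00224). *CYCS*, cytochrome *c*, was next (0.20, adjusted p = 0.0521), and *ETFB* (−0.14) and *ETFDH* (−0.07) were the lowest. Of 13 enzymes of the tricarboxylic acid cycle, 2 were lower (15.4%, against 30.5% of all genes tested) and none was higher (against 12.2%), and *SUCLG1*, of succinyl-CoA ligase, was among the lower ones (−0.24, adjusted p = 0.0071). *IDH3B* (0.11) and *MDH2* (0.07) had the highest values of that list. With median-of-ratios scaling *IDH3B* and *MDH2* were higher (15.4%, against 21.2% of all genes tested) and 1 was lower (7.69%, against 19.9%). On that scale both shares were below those of all genes, and *SUCLG1* lost its call (adjusted p = 0.075).

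Of 14 regulators of mitochondrial gene expression, 13 were tested, 3 were lower (23.1%, against 30.5% of all genes tested) and 2 higher (15.4%, against 12.2%), with a median of −0.03. *PPARGC1B*, a coactivator of these genes, was lower (−0.46, limma adjusted p = 0.0108), as were the nuclear receptor *ESRRA* (−0.27, adjusted p = 0.0107) and the activator *NRF1* (−0.24, adjusted p = 0.034). With median-of-ratios scaling only *PPARGC1B* of the 3 passed. The mitochondrial transcription and rRNA methylation factors *TFB1M*, on chromosome 6, and *TFB2M* were higher (0.48 and 0.28, adjusted p = 0.023 and 0.00466). *GABPA*, the DNA-binding part of GABP, had a log2 fold change of −0.01 and *TFAM*, which packages mitochondrial DNA, one of −0.04. The 37 subunits with the NRF1, ETS or YY1 letters in their promoter had a median log2 fold change of −0.14 and the 24 matched subunits without them one of −0.04. The motifs differed among themselves: the median was −0.15 with the ETS letters and −0.05 without, −0.08 with the NRF1 letters and −0.10 without, and −0.03 with the YY1 letters and −0.10 without. These values describe these genes only and were not tested.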

How the data were processed

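Per the labels, 3 shEV and 3 shPAX2 libraries were grouped by title, with replicate numbers 1 to 3. The authors deposited TPM values per gene symbol, already scaled for gene length and for a total of 1000000 per library. The submitters' processing notes name STAR, Subread, featureCounts, edgeR and hg19, with no versions. The study's methods name RSEM for another line, so the counting tool is uncertain. A share scale lets abundant RNAs move all other values: *RPPH1* and *RMRP* took 12.67% to 15.57% of TPM.

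Whole reads were recovered from the ratios of TPM within each gene (largest relative deviation 7.15e-14), up to a factor common to the libraries of a gene. Genes that reached 0.5 TPM in no fewer than 3 libraries entered the test, on log2(TPM + 0.5), with limma 3.58.1 in R 4.3.3 (lmFit, eBayes with trend and robust), without covariates, two-sided, with Benjamini-Hochberg adjustment over all genes tested. This scale understates changes of low genes. The scripts were tested on simulated data. Median-of-ratios scaling, quantile normalization, voom on recovered reads, other pseudocounts and filters, rescaling, plain eBayes, a replicate block and each library left out were the alternatives.

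Gene coordinates are those of GENCODE on GRCh37. Promoters are from RefSeq on GRCh38.p14. Motif letters were matched exactly.

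Members and gene lists were chosen with earlier results of these data known. The text names, for complexes I, III, IV and V, the 3 highest and 3 lowest subunits, all of complex II, the most abundant member of each complex, paralogue groups, catalytic complex I subunits, members on chromosome 6, rows that are not subunits, and the 2 highest and 2 lowest genes of each list. A few genes that this rule names are not reported here. Other members past the threshold, *NRF1*, *GABPA*, *TFAM* and others outside this rule were added after their values were seen.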

Additional observations from a re-analysis of the deposited data

How the results depend on the processing

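Over 16 alternative settings and 1353 member values, 1205 stayed on their side of the threshold, 109 lost the call and 39 gained one. None of the 29 called members changed sign, while 25 of the other members did so in at least 1 setting, among them *UQCRH*, *ATP5O* and *ATP5B*. Median-of-ratios scaling gave 12 higher and 6 lower members (2786 and 2626 over all genes), and voom 15 and 8 (2945 higher over all genes). Quantile normalization gave 4 higher and 26 lower members (2367 and 2489 over all genes). Fits without 1 library gave 3 to 6 higher and 12 to 24 lower members, and 975 to 1803 higher and 2867 to 3855 lower genes, with the fewest members and higher genes without shPAX2 replicate 2. The count of members that also changed by 1 or more on the log2 scale was 0 with voom and 0 to 1 without 1 library. The carrier list had 2 calls with a filter at a TPM of 5, median-of-ratios, quantile, rescaled TPM or voom, and 1 to 3 without 1 library. The regulator list had 2 with quantile normalization and 3 to 5 without 1 library.

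The members' median log2 fold change minus that of all genes was −0.0202 with a filter at a TPM of 5, −0.0924 with quantile normalization and −0.0217 to 0.0256 without 1 library, against 0.01. With quantile normalization it was −0.0944, 0.102, −0.0826, −0.255 and −0.0823 for complexes I to V. With no filter it was −0.0503 for complex I and 0.0193 for complex V, and with a filter at a TPM of 5 it was 0.0051 for complex V. Without 1 library it ran from −0.0396 to 0.0187 for complex I, 0.183 to 0.266 for complex II, 0.0165 to 0.0583 for complex III, −0.153 to −0.115 for complex IV and 0.0179 to 0.0663 for complex V. The cause of these shifts was not tested.

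With the replicate number as a block, 4 members were higher and 21 lower, and 0 passed that also changed by 1 or more (adjusted p = 0.0711 for *NDUFA4L2*, whose adjusted p ran from 0.00424 to 0.0711 over the settings). Same-numbered libraries had correlations of −0.0523, 0.0815 and 0.0014, and not every library correlated best with its own number. No effect shared by same-numbered libraries was thus seen. With 3 libraries per group these values cannot settle whether the numbers mark pairs. *PAX2* gave no value under a filter at a TPM of 5. Depth limits the genes with few reads (*COX8C*, *COX7A1*, *UQCRBP1*, *ATP5L2*, *ATP5EP2* and *NDUFB2-AS1*).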

Other observations

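The standard subunits are short and abundant genes, which the name rule did not use. Relative gene lengths, taken from the ratio of recovered reads to TPM, had a median of 0.313 of that of the median tested gene, and 72 of the 75 subunits (96%) were shorter than it. The values ran from 0.109 (*ATP5G1*) to 1.76 (*UQCRB*). Reads were recovered up to a factor common to the libraries of a gene, so the length of a single gene can come out too short. Across the subunits, Spearman's rho between relative length and log2 fold change was 0.092 (75 genes), and across all genes with a length it was −0.147 (12685 genes). Genes are not independent replicates, and both values come from the same 6 libraries. Of all genes with a length, the median log2 fold change was −0.03 in the shortest 3172 and −0.17 in the longest quartile.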
